A study of Rattus norvegicus with 21 samples.

Results

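Levels in spinal cord were examined for 5 rat genes through which cells detect bacterial products and pass that signal to the transcription factor NF-kB: Tlr4 (ENSRNOG00000010522), Tlr2 (ENSRNOG00000009822), Cd14 (ENSRNOG00000017819), Myd88 (ENSRNOG00000013634) and Nfkbia (ENSRNOG00000007390). They were taken by gene ID, and they are 5 of the 32883 IDs counted in each library. The study asked what antibiotics do to the central nervous system. All animals were wild type rats of the LEW/Crl strain, 6 to 8 weeks old, dosed intratracheally for 7 days. The control groups received PBS, a salt buffer, and the other groups received neomycin (NEO) or vancomycin (VANCO). Microglia were represented by 4 libraries for each of PBS, NEO and VANCO, numbered 1, 2, 3 and 5. Total spinal cord was represented by 3 libraries for each of PBS, NEO and VANCO, numbered 1, 2 and 3. Microglia were sorted with antibodies as CD45low CD11b+ cells after Percoll removal of myelin, and total cord is the pellet left after the same removal, so it lacks part of the myelin of the intact cord. Neither the number of animals behind each library nor the meaning of the replicate numbers is stated in the labels. The p-values therefore reflect variation among these samples, which may be partly technical.

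Toll-like receptors are membrane proteins that bind conserved microbial molecules. TLR4 responds to lipopolysaccharide of Gram-negative bacteria, and TLR2 to bacterial lipoproteins, while CD14 hands such ligands to both. MyD88 is the adaptor that links these receptors to the kinases that release NF-kB, and IkB-alpha, the product of Nfkbia, holds NF-kB in the cytoplasm. Nfkbia is itself a target of NF-kB, so its mRNA is widely used as a readout of that pathway. In the nervous system microglia, the resident macrophages, are the main cells known to express these receptors. Vancomycin acts on Gram-positive bacteria, and neomycin, an aminoglycoside, acts mostly on Gram-negative ones.

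Sequence before the RefSeq start of each gene was searched. The reasons were that Nfkbia and Tlr2 are known targets of NF-kB and that all 5 genes were far higher in microglia. All 5 symbols matched the RefSeq table of promoters (build GRCr8; the counts used another build, rn6). In the 250 bases before each RefSeq start, both strands were searched for the kB consensus motif, the 10-base site of NF-kB, and for GAGGAA, the core of sites of the myeloid factor PU.1. The kB motif occurred in Nfkbia (1 match) and Tlr2 (3 matches, of which 2 overlap) and in 6.33% of all 33469 promoters. GAGGAA occurred in Tlr4 and Cd14 (2 matches each) and in 23.3% of all promoters. Myd88 held neither. The stretches of 30 bases below show the matches in capitals, read 5′ to 3′ on the strand of the gene. The kB match of Nfkbia, like the matches of Tlr4, lies on the opposite strand. Those of Cd14 are not printed. Annotated spans of Nfkbia, Tlr2 and Cd14 reach upstream of the start used, so their matches may lie inside the gene. A match is a string of letters and not evidence of binding.
Nfkbia, kB motif, chr6:78597084-78597113, minus strand: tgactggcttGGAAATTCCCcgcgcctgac
Tlr2, kB motifs that overlap, chr2:171504744-171504773, minus strand: caggcccttgGGGGAATTCCCatacggagc
Tlr2, kB motif, chr2:171504580-171504609, minus strand: ccctggcctgGGGACGTCCCcttcccgcac
Tlr4, GAGGAA on the opposite strand, chr5:85161174-85161203, plus strand: gccagcTTCCTCttgctgTTCCTCcagaag

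Library totals ranged from 9020480 to 22435887 counts in microglia and from 16769410 to 25114844 in cord. Behind the values stand 219 to 801 counts of Cd14, the lowest of the 5 genes, in a microglia library and 25 to 51 in a cord library. Nfkbia had 1557 to 14065 counts in microglia and 202 to 682 in cord. Levels below are CPM, counts scaled for sequencing depth, with library totals adjusted by TMM factors over all 21 libraries. Gene lengths of the annotation used for counting were not used here, so levels are compared between groups and not between genes. One library stood apart: the 1646 genes whose cord level in PBS animals exceeded the microglial one by 64-fold or more made up 2.57% of the counts of microglia NEO replicate 2, 0.306 and 0.303% of PBS and VANCO replicate 2, and 0.0367 to 0.112% of the other 9 microglia libraries. Cell type markers and the other genes of the pathway were not examined, because 0 of the 32883 IDs matched a gene name in the table used here.

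All 5 genes were higher in microglia than in total cord. In PBS animals Tlr2 was 42.6-fold higher in microglia (95% interval 33.8 to 53.7) and Tlr4 28.9-fold higher (21.4 to 39.1). Nfkbia was 18.4-fold higher, with a wide interval of 6.68 to 50.9. Cd14 was 12.8-fold higher (8.76 to 18.8) and Myd88, an adaptor shared by most Toll-like receptors, 11.5-fold higher (9.05 to 14.6). edgeR called all 5, with adjusted p from 2.97e-15 for Tlr2 to 2.63e-05 for Nfkbia, where "called" means an adjusted p below 0.05. The background is high here: 84% of 15546 genes were called, 45% as higher in microglia, and 85.9% with the replicate number as a block. That block treated the same number in microglia and cord as shared, although likeness by number was examined only within each tissue. What differed from the bulk of genes was the size. The median log2 fold change was 4.20 for the 5 genes, and the median absolute log2 fold change of all genes was 1.57. The signed median of all genes, in which higher and lower genes cancel, was 0.21. Scaling by RLE factors lowered the signed medians of the 5 genes and of all genes, to 3.71 and -0.29. In 5 of the 5 genes the lowest microglia library lay above the highest cord library, as it did in 35.8% of all genes. Bulk cord cannot tell a smaller number of microglia from less of each mRNA per cell.

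**Figure D1:**
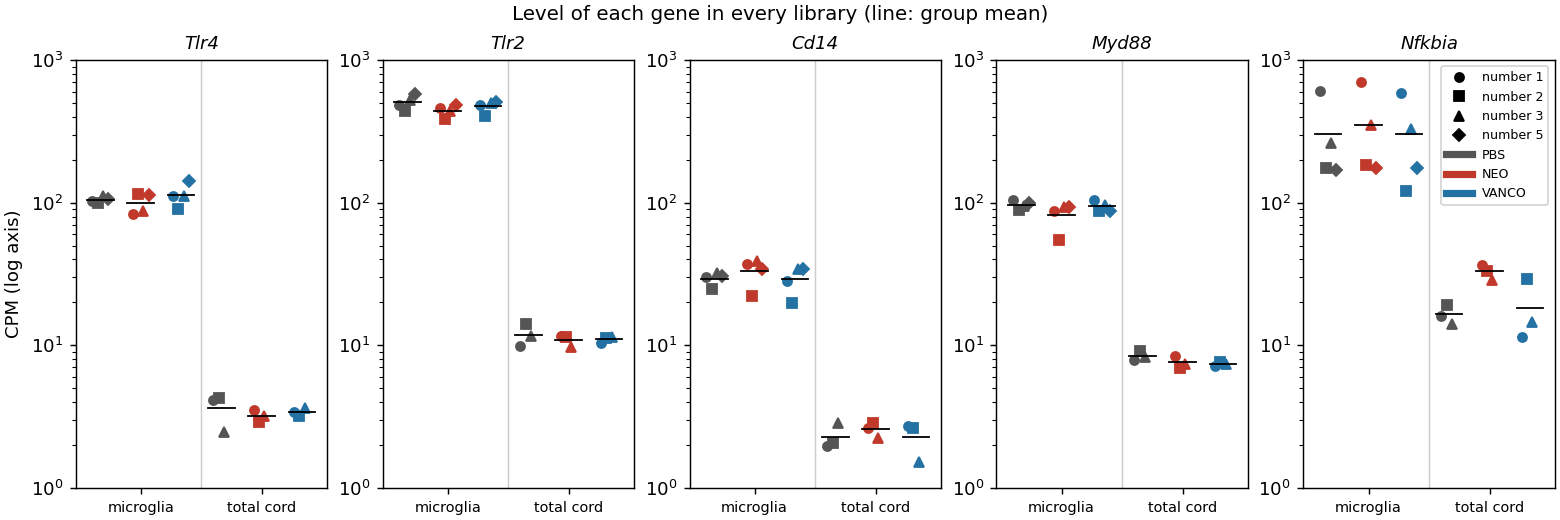
Level of each gene in CPM (log axis) in every library; the symbol shape is the replicate number, the colour the treatment, and the line the mean of the group. For all 5 genes, as for 35.8% of all genes tested, the 12 microglia libraries lie above the 9 cord libraries, while treatments overlap except for Nfkbia after NEO and Myd88 after VANCO, each against PBS, in cord.

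In microglia the neighbouring groups overlapped for every gene, Tlr4 running from 113 ± 21.1 CPM in VANCO through 105 ± 4.92 in PBS to 99.6 ± 16.4 in NEO (SD, n = 4 each). Tlr2 ran from 505 ± 60.3 CPM in PBS through 476 ± 47.1 in VANCO to 442 ± 41.2 in NEO. Cd14 had 33.1 ± 7.54 CPM in NEO, 29.3 ± 3.14 in PBS and 29.2 ± 6.83 in VANCO. Myd88 had 96.7 ± 6.58 CPM in PBS, 94.2 ± 7.88 in VANCO and 82.1 ± 18.5 in NEO. Nfkbia had 352 ± 246 CPM in NEO, 305 ± 209 in PBS and 303 ± 210 in VANCO. Its SD was 68.6 to 69.8% of the mean in each microglia group, against 4.68 to 23.4% for the other 4 genes.

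The NEO and PBS microglia overlapped for each receptor gene and for the adaptor, though some NEO libraries lay outside the range of PBS. Tlr4, the lipopolysaccharide receptor, stood at 102, 100.3, 111 and 107 CPM in PBS replicates 1, 2, 3 and 5 and at 83.0, 115, 88.0 and 112 CPM in NEO. The NEO values lay on both sides of the PBS ones, and the log2 fold change was -0.05 (95% interval -0.37 to 0.27, edgeR adjusted p 0.964). Tlr2, the lipoprotein receptor, had 484, 436, 522 and 579 CPM in PBS and 461, 386, 439.8 and 482 CPM in NEO. It was lower after NEO in 4 of 4 numbers, though the groups overlapped, and its log2 fold change was -0.17 (-0.40 to 0.07, edgeR adjusted p 0.858). Cd14, the co-receptor, had 29.9, 24.8, 32.1 and 30.5 CPM in PBS and 37.0, 22.1, 38.8 and 34.4 CPM in NEO. In 3 of 4 numbers the NEO library was the higher one, with a log2 fold change of 0.20 (-0.22 to 0.61, edgeR adjusted p 0.871). It was 0.33 without NEO replicate 2 and ranged from 0.12 to 0.24 with any other NEO or PBS library left out.

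Myd88 had 104, 88.5, 95.4 and 98.7 CPM in PBS microglia of replicates 1, 2, 3 and 5 and 87.3, 54.7, 92.7 and 93.7 CPM in NEO. It was lower after NEO in 4 of 4 numbers, most of all in NEO replicate 2, and the log2 fold change was -0.22 (-0.52 to 0.09, edgeR adjusted p 0.858). Without NEO replicate 2 that value was -0.08. Being lower in every number was common, as 14.2% of 12570 genes were. Nfkbia, the inhibitor, had 612, 176, 262 and 168 CPM in PBS and 701, 184, 349.9 and 174 CPM in NEO. It was higher after NEO in 4 of 4 numbers, by 1.03 to 1.33 times, as were 9.98% of genes. Its log2 fold change of 0.23 had an interval from -1.18 to 1.64 (edgeR adjusted p 0.960), the widest of the 5 genes.

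For NEO against PBS in microglia edgeR called 0 of the 5 genes, against 0.0398% of all genes, and 0 of 5 had an unadjusted p under 0.05, against 5.21%. DESeq2 and limma-voom called 0 of 5 each, against 0.525 and 0.00796%. With the replicate number as a block edgeR again called 0 of 5 (0.748% of all genes), while Tlr2 and Myd88 had unadjusted p of 0.0413 and 0.0467 (adjusted 0.352 and 0.362). An unadjusted p under 0.05 was then found for 13.6% of all genes. The block narrowed the interval of Nfkbia to -0.08 to 0.49 around 0.20. The median log2 fold change of the 5 genes was -0.05, beside 0.0015 over all genes.

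**Figure D2:**
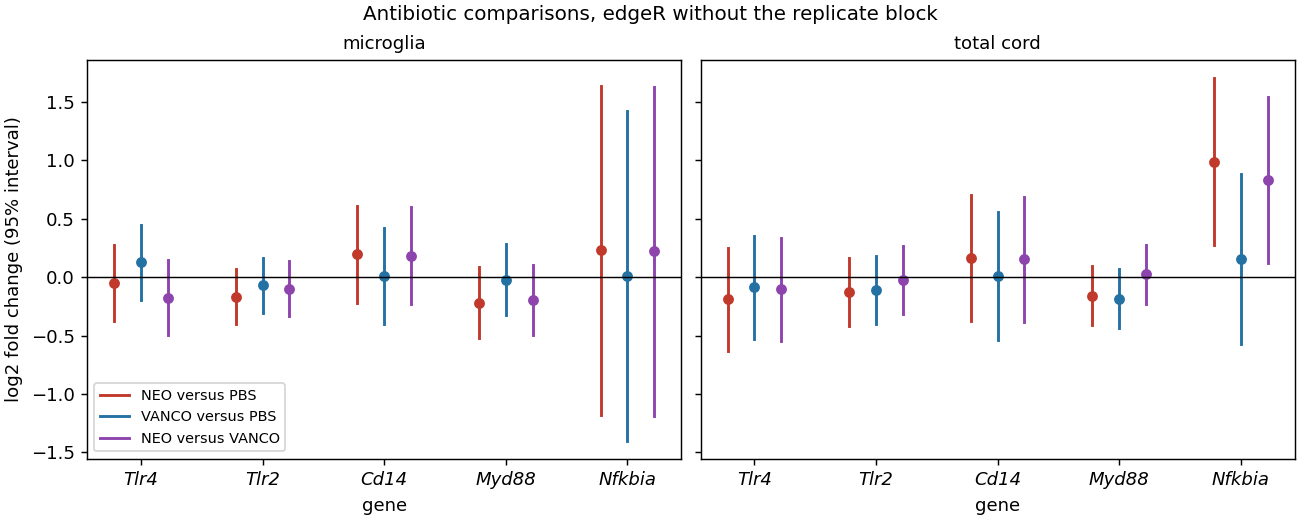
Log2 fold change (point) with its 95% interval (bar) for each gene in 3 comparisons of treatments, in microglia (left) and total cord (right), from edgeR without the block. Among these 30 intervals only those of Nfkbia for NEO against PBS (0.27 to 1.70) and NEO against VANCO (0.13 to 1.54) in cord lie clear of 0.

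None of the 5 genes was called between VANCO and PBS in microglia. The intervals, widest for Nfkbia in the fit without the replicate block, do not show an absence of change. Tlr4 had 112, 90.1, 111 and 141 CPM in VANCO replicates 1, 2, 3 and 5, and its log2 fold change against PBS was 0.13 (-0.19 to 0.45). Tlr2 had 487, 406, 499 and 509.7 CPM, with -0.07 (-0.30 to 0.17). Cd14 had 28.4, 19.8, 34.2 and 34.3 CPM, with 0.01 (-0.40 to 0.43). Replicate 2 was the lowest VANCO library for each of these receptor genes. Myd88 had 104, 87.5, 97.1 and 88.0 CPM, with -0.02 (-0.32 to 0.28). Nfkbia had 588, 120.2, 328 and 175 CPM, with 0.01 (-1.40 to 1.42). With the replicate number as a block the value of Nfkbia was -0.03 (-0.32 to 0.26). That interval was slightly narrower than the blocked one of Tlr4 (-0.19 to 0.42). All 5 overlapped with PBS, and edgeR gave each an adjusted p of 1.00.

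For VANCO against PBS in microglia edgeR called 0 of the 5 genes and 0% of all genes, and an unadjusted p under 0.05 was found for 0 of 5, against 0.859% of all genes. DESeq2 called 0 of 5 (0.0398% of all genes), and limma-voom and the blocked edgeR fit called 0 of 5 (0% each). Both antibiotics were compared with the same PBS libraries. In the direct comparison of NEO with VANCO in microglia the log2 fold changes ran from -0.20 for Myd88 to 0.22 for Nfkbia. Without NEO replicate 2 the value of Myd88 was -0.06. Here edgeR called 0 of 5 and 0% of all genes, with an unadjusted p under 0.05 for 0 of 5 and for 2.14% of all genes. DESeq2, limma-voom and the blocked fit called 0 of 5, against 0.127, 0 and 0.167% of all genes.

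In total cord Nfkbia had the largest fold differences of the 5 genes in both comparisons with NEO, and its NEO values lay clear of the PBS ones. It had 16.0, 19.3 and 14.2 CPM in PBS replicates 1, 2 and 3, 36.8, 33.4 and 28.7 CPM in NEO, and 11.5, 29.1 and 14.6 CPM in VANCO. All NEO libraries lay above all PBS libraries. VANCO replicate 2 lay within the range of NEO, replicate 3 within that of PBS, and replicate 1 below all PBS libraries. The groups did not overlap for 1 of the 5 genes, and 3.27% of all 14677 genes were likewise higher without overlap. Within each number NEO exceeded PBS by 1.73 to 2.29 times, in 3 of 3 numbers, as did 16.4% of genes in direction. The log2 fold change was 0.99 (SE 0.31, interval 0.27 to 1.70), with an unadjusted p of 0.0128 and an edgeR adjusted p of 1.00. Nfkbia thus did not pass the test over all genes.

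How far Nfkbia missed the threshold in cord depended on the tool. For NEO against PBS its adjusted p was 0.0578 with DESeq2, 1.00 with limma-voom, 0.402 with the replicate block, and 0.104 in a fit of only the NEO and PBS libraries. Leaving out 1 library at a time gave log2 fold changes from 0.90 to 1.11, and adjusted p from 0.730 to 1.00. The same edgeR fits with the block gave a wider range, from 0.77 to 1.25, and adjusted p from 0.310 to 0.755. For NEO against VANCO the log2 fold change of Nfkbia was 0.83 (SE 0.31, interval 0.13 to 1.54, edgeR adjusted p 1.00, unadjusted 0.0265), and NEO was higher in 3 of 3 numbers, as in 16.4% of all genes. This comparison depended on single VANCO libraries. Without VANCO replicate 2 the log2 fold change was 1.32 (edgeR adjusted p 0.0630). With the block as well it was 1.27 (adjusted p 0.000177, in a fit that called 0.399% of all genes). Without VANCO replicate 1 it was 0.59, and 0.58 with the block (adjusted p 1.00 and 0.351). For VANCO against PBS it was 0.16 (-0.57 to 0.88, edgeR adjusted p 1.00).

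None of the receptor genes was called between treatments in cord, and neither was Myd88. Tlr4 had 4.12, 4.28 and 2.45 CPM in PBS replicates 1, 2 and 3, 3.51, 2.90 and 3.19 in NEO, and 3.41, 3.20 and 3.66 in VANCO. Tlr2 had 9.88, 14.1 and 11.6 CPM in PBS, 11.5, 11.4 and 9.74 in NEO, and 10.4, 11.3 and 11.4 in VANCO. For both receptors the treated libraries lay inside the range of PBS, except Tlr2 in NEO replicate 3, which was just below it. Cd14 had 1.98, 2.05 and 2.84 CPM in PBS, 2.64, 2.85 and 2.24 in NEO, and 2.73, 2.61 and 1.53 in VANCO. Myd88 had 7.85, 9.09 and 8.33 CPM in PBS, 8.41, 6.92 and 7.41 in NEO, and 7.17, 7.68 and 7.39 in VANCO. All VANCO libraries of Myd88 lay below all PBS libraries, a separation seen for 1 of the 5 genes and for 2.17% of all genes as lower values. Its log2 fold change was -0.18 (-0.44 to 0.07, edgeR adjusted p 1.00).

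For NEO against PBS in cord the log2 fold changes of Tlr4, Tlr2, Cd14 and Myd88 were -0.19 (-0.63 to 0.25), -0.13 (-0.42 to 0.16), 0.16 (-0.37 to 0.70) and -0.16 (-0.41 to 0.09). edgeR called 0 of the 5 genes and 0% of all genes, with an unadjusted p under 0.05 for 1 of 5 (Nfkbia) and for 2.73% of all genes. DESeq2, limma-voom and the blocked fit called 0 of 5, against 0.177, 0 and 0.681% of all genes. The unadjusted p of Nfkbia was 0.0258 with the block, where 10.3% of all genes were under 0.05. For VANCO against PBS edgeR called 0 of 5 and 0% of all genes, with an unadjusted p under 0.05 for 0 of 5 and 0.845%. DESeq2, limma-voom and the blocked fit called 0 of 5, against 0, 0 and 0.00681%. For NEO against VANCO edgeR called 0 of 5 and 0%, with an unadjusted p under 0.05 for 1 of 5 (Nfkbia) and 2.26%. DESeq2, limma-voom and the blocked fit called 0 of 5, against 0.17, 0 and 0.436%, and the blocked unadjusted p was under 0.05 for Nfkbia (0.0379) and for 8.82% of all genes.

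Whether an antibiotic acted differently in the 2 tissues was tested in a model of all libraries. The neomycin effect on Nfkbia was lower in microglia than in cord by a log2 difference of -0.79 (-2.53 to 0.96, edgeR adjusted p 1.00), and by -0.84 (-1.41 to -0.28, adjusted p 0.278, unadjusted 0.00633) with the block. The other 4 genes had log2 differences from -0.08 (Myd88) to 0.10 (Tlr4) for neomycin. edgeR called 0 of the 5 genes and 0% of 15546 genes, with 0 of 5 and 2.82% below 0.05 before adjustment. limma-voom and DESeq2 likewise called 0 of 5 and 0% of all genes. The blocked fit called 0 of 5 (0.193% of all genes), with 1 of 5 (Nfkbia) and 9.08% at an unadjusted p under 0.05. For vancomycin the log2 differences ran from -0.16 (Nfkbia) to 0.19 (Tlr4). Here edgeR called 0 of 5 and 0%, with 0 of 5 and 1.51% at an unadjusted p under 0.05, and DESeq2, limma-voom and the blocked fit called 0 of 5, against 0.00643, 0 and 0.116%.

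In microglia the replicate number went with far larger differences in Nfkbia than the treatment did. Its level was 588 to 701 CPM in the 3 libraries numbered 1, 262 to 349.9 CPM in those numbered 3, 168 to 175 CPM in those numbered 5, and 120.2 to 184 CPM in those numbered 2. Libraries of numbers 1 and 3 thus did not overlap with each other or with the rest, whatever the treatment, while numbers 2 and 5 overlapped. The share of all genes separated in this way was not counted. A test of the 4 numbers across treatments was chosen after these values were seen. It gave Nfkbia an edgeR adjusted p of 2.02e-05 and called 35.8% of all 12570 genes. Without the libraries numbered 1 the adjusted p of Nfkbia was 0.00990, in a fit that called 21.9% of all genes. In cord the 3 numbers overlapped for Nfkbia, with 11.5 to 36.8 CPM in number 1, 19.3 to 33.4 CPM in number 2 and 14.2 to 28.7 CPM in number 3 (adjusted p 0.397). Without number 1 the adjusted p in cord was 0.0215, in a fit that called 17.9% of all genes.

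**Figure D3:**
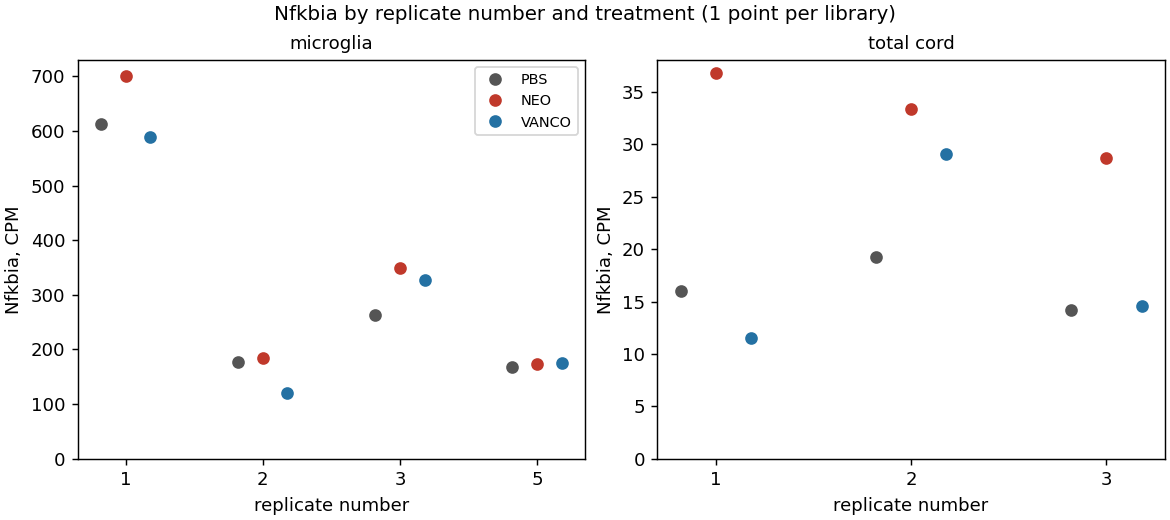
Nfkbia in CPM (axis from 0) by replicate number, 1 point per library coloured by treatment, in microglia (left) and total cord (right). The microglia points group by number, from 588 to 701 CPM in number 1 to 168 to 175 CPM in number 5, while in cord NEO is the highest point of each number.

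Number 2 held the lowest microglia values of 3 other genes in every treatment. This pattern was picked after the values were seen, and the share of all genes with it was not counted. Differences between numbers were common, as their test called 35.8% of all genes in microglia. Cd14 was 19.8 to 24.8 CPM in the libraries numbered 2, and 28.4 to 38.8 CPM in the others, without overlap. Tlr2 was 386 to 436 CPM in number 2 and 439.8 to 579 CPM in the others. Myd88 was lowest in number 2 within PBS (88.5 CPM), NEO (54.7 CPM) and VANCO (87.5 CPM), although its values overlapped with those of other numbers. Tlr4 was lowest in number 2 within PBS (100.3 CPM) and VANCO (90.1 CPM), but in NEO its number 2 was the highest (115 CPM). The same 3 libraries had the highest shares of cord-enriched counts given above, and the part of that share in these levels was not tested.

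The test of the numbers in microglia called 2 of the 5 genes, Nfkbia and Cd14 (edgeR adjusted p 0.00962), against 35.8% of all genes. Tlr2, Myd88 and Tlr4 had adjusted p of 0.0632, 0.114 and 0.554. Without the libraries numbered 2 the adjusted p of Cd14 was 0.499, so its call rested on that number; that fit called 1 of 5 (Nfkbia) and 25% of all genes. Without NEO replicate 2 alone, 4 of 5 were called: Tlr2 (adjusted p 0.00598) and Tlr4 (0.0430) joined Cd14 and Nfkbia. In that fit 48.1% of all genes were called. In cord 0 of the 5 genes were called, against 32.5% of all genes.

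**Figure D4:**
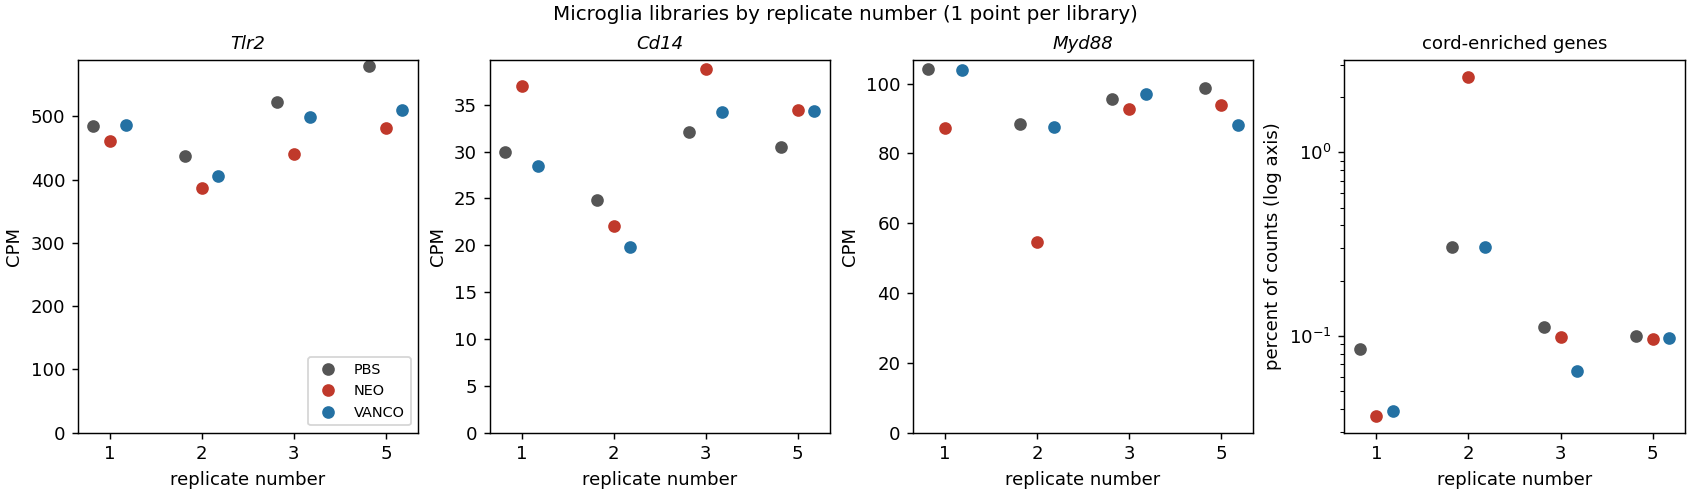
Tlr2, Cd14 and Myd88 in CPM (axes from 0) and the percentage of counts from cord-enriched genes (log axis) by replicate number in the 12 microglia libraries, coloured by treatment. Number 2 is lowest for Cd14 (19.8 to 24.8 CPM) and holds the highest cord-enriched percentages (0.303 to 2.57%).

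Genes with the most similar pattern were sought by Pearson correlation of log2 CPM, as a description only, since libraries share replicate numbers, depth and scaling. Over the 12 microglia libraries the closest gene reached r = 0.90 for Tlr4, 0.90 for Tlr2, 0.91 for Cd14, 0.98 for Myd88 and 0.97 for Nfkbia. The highest of these was ENSRNOG00000006394 with Myd88 (Spearman's rho 0.94). Over the 9 cord libraries the closest gene reached r = 0.93 for Tlr4, 0.93 for Tlr2, 0.95 for Cd14, 0.91 for Myd88 and 0.98 for Nfkbia. The highest there was ENSRNOG00000013379 with Nfkbia (rho 0.97). In neither tissue was the closest gene of any of the 5 another of the 5.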

How the data were processed

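The 21 deposited files hold whole-number counts for each rat Ensembl gene, and these counts carry no normalisation. The submitters' processing notes name featureCounts 1.5.0-p1, STAR 2.5.2a, build rn6 and bcl2fastq 2.20.0.422. Whether strand was used, how reads with more than 1 alignment were treated, and the annotation release were not given in the sources used here. Genes that overlap or have an antisense partner are therefore uncertain. The 27 pairs of libraries within a group differed by more than sampling noise (chi-square per degree of freedom 8.35 to 221).

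All genes were fitted in R 4.3.3 with edgeR 4.0.16: filterByExpr by group, TMM factors, a robust quasi-likelihood F test on group means, and Benjamini-Hochberg adjustment with a threshold of 0.05. The 12 microglia libraries (12570 genes), the 9 cord libraries (14677) and all 21 (15546) were separate models. SE and 95% intervals come from the F statistic. Alternatives were DESeq2 1.42.0, limma 3.58.1 with voom, other scalings, filters and fits, a block for the replicate number, and each library left out.

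Deviations from group means of log2 CPM (prior count 2) were correlated between libraries of different treatments. Libraries of the same number had r of 0.24 to 0.79 in microglia and 0.36 to 0.59 in cord. Those of different numbers had -0.55 to 0.34 in microglia, which overlaps, and -0.49 to 0.0091 in cord. In 12 of 12 microglia and 9 of 9 cord libraries the highest r was with a library of the same number. The fits with the block therefore took the numbers to pair the libraries, which comes from the data and not from a label. Fits given without mention of the block used group means only and no pairs. The 5 genes are named in every comparison whatever their values. For each of them the 2 genes most alike were sought, and only the single most alike gene in each tissue is printed, by its ID. The genes, lists and tests were chosen with earlier results of these data known. The pathway and cell type lists needed gene names and were not used here. The code was tested on simulated data.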

Additional observations from a re-analysis of the deposited data

Results flagged for a closer look

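Among 21 combinations of a gene or library measure with a microglia group, 4 held a library beyond Dixon's critical value for 4 samples. The value compared was the gap to the nearest neighbour divided by the range of the group. Chance gives about 1 in 20 groups. Myd88 stood at 54.7 CPM in microglia NEO replicate 2, against 87.3 to 93.7 CPM in the other NEO libraries. The same library took 2.57% of its counts from cord-enriched genes, against 0.0367 to 0.0986% in the other NEO libraries. In microglia PBS replicate 2 that share was 0.306%, and the other PBS libraries had 0.0850 to 0.112%. The total of microglia VANCO replicate 3 was 20936827 counts, against 14706297 to 15319914 in the other VANCO libraries.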

How the results depend on the processing

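In the 6 comparisons of treatments and the 2 differences between tissues, edgeR, DESeq2, limma-voom and every other scaling, filter or fit run called 0 of the 5 genes, and the microglia to cord comparison called 5 of 5 under each of them. With the replicate block, which takes the number as a pair, 0 of 5 and 5 of 5 were likewise called; the log2 fold change of Nfkbia for NEO against PBS was 0.20 in microglia and 1.01 in cord. With 1 library left out, the number called for NEO against VANCO in cord ranged from 0 to 1, the 1 being Nfkbia with the block and without VANCO replicate 2. The test of the numbers in microglia called 1 gene (Nfkbia) without number 2 and 4 without NEO replicate 2, in fits that called 25 and 48.1% of all genes. In cord it called 1 (Nfkbia) without number 1, where 17.9% of all genes were called. RLE scaling multiplied levels by 1.20 to 1.22 in cord and by 0.840 to 0.933 in microglia.

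Signs that turned all belonged to uncalled values. For VANCO against PBS in microglia the log2 fold change of Cd14 was -0.022 with limma-voom, -0.00056 with upper quartile factors, -0.0052 with the replicate block and -0.0076 with all libraries in 1 fit, and that of Nfkbia -0.045, -0.0035, -0.031 and -0.0084. The neomycin difference between tissues for Cd14 was -0.024 with limma-voom, -0.0053 with no filter on low counts and -0.011 with the replicate block. The cause was not tested.

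With 1 library left out, with or without the block, log2 fold changes that changed sign ranged as follows. For NEO against PBS in microglia, Tlr4 ranged from -0.22 to 0.020 and Nfkbia from -0.36 to 0.83. In the fits with the block alone Nfkbia kept its sign there, at 0.11 to 0.30. For VANCO against PBS in microglia, Tlr2 ranged from -0.13 to 0.0042, Cd14 from -0.084 to 0.16, Myd88 from -0.081 to 0.040 and Nfkbia from -0.55 to 0.62. The fits with the block gave Nfkbia a range of -0.13 to 0.12. For NEO against VANCO in microglia, Nfkbia ranged from -0.37 to 0.78, but only from 0.082 to 0.33 in the fits with the block. For NEO against PBS in cord, Tlr2 ranged from -0.25 to 0.0087 and Cd14 from -8.7e-05 to 0.51. For VANCO against PBS in cord, Tlr4 ranged from -0.31 to 0.10, Tlr2 from -0.22 to 0.030, Cd14 from -0.17 to 0.34 and Nfkbia from -0.34 to 0.42. For NEO against VANCO in cord, Tlr4 ranged from -0.18 to 0.071, Tlr2 from -0.14 to 0.073, Cd14 from -0.088 to 0.33 and Myd88 from -0.086 to 0.11. For the neomycin difference between tissues, Tlr4 ranged from -0.11 to 0.33, Tlr2 from -0.22 to 0.047, Cd14 from -0.35 to 0.17 and Myd88 from -0.20 to 0.080. For the vancomycin difference, Tlr4 ranged from -0.017 to 0.42, Tlr2 from -0.13 to 0.14, Cd14 from -0.35 to 0.15 and Nfkbia from -0.71 to 0.43. Depth limits Cd14 and Tlr4 most in cord, at 25 to 51 and 38 to 73 counts a library.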
